A study of Mus musculus with 8 samples.

Results

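The thalamic marker genes examined here were Tcf7l2, Lef1, Rora, Zic1, Zic2, Slc17a6, Prkcd, Rgs16, Ntng1 and Synpo2, measured in dissected mouse hippocampus. These 10 genes were chosen from 18193 on the array after earlier results of the same arrays had been seen, and the choice used the difference between the RA and control groups. That difference is therefore given below as a description, with no test. Every probe set that names one of the genes alone was taken, 33 of 45037 probe sets in all. The RA group was 4 samples of 3xTg-AD hippocampus from mice fed a diet with 0.5% rosmarinic acid (RA), a plant polyphenol, for 8 months. The control group was 4 samples from mice fed the same diet without RA. All mice were male and 10 months old, and all carried the strain's 3 human disease genes, a Swedish amyloid precursor protein, a mutant tau and a mutant presenilin 1. The Methods name 4 mice per group and also pooled total RNA, so whether each array holds 1 mouse is not settled, and the p-values measure only the spread between these arrays.

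The thalamus is a relay of the diencephalon that lies directly beneath the hippocampus. Its relay neurons are glutamatergic and load their vesicles mainly through VGLUT2, the product of Slc17a6, whereas the principal neurons of the hippocampus mainly use VGLUT1, the product of Slc17a7. Thalamic neurons continue to express Tcf7l2 and Lef1, transcription factors of the Wnt pathway, in the adult brain. None of the genes is exclusive to the thalamus. Rora is also used by astrocytes and some interneurons, for example, and Zic1 and Zic2 by cells of the meninges. In bulk tissue, fewer cells of a type and less RNA per cell cannot be told apart.

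Each array gave 1 log2 value per probe set, summarised by the authors with FARMS, a factor analysis of the probes. FARMS gives a nearly constant value where the probes of a set share no variation over the arrays. Such a value can be high, as for Slc17a7 (mean 8.44), so it does not show that a gene was silent. A probe set with an SD of at most 0.01 over the 8 arrays is called unmeasured here, which was the case for 41279 of 45037 probe sets. The other 3758 (8.34%) varied. In 73.1% of the varying probe sets the RA mean was the higher one, and their log2 fold changes had a median of 0.07. The array medians were 5.833 to 5.835 in the RA group and 5.829 to 5.831 in the control group. The rank product, the test of the Methods, was fitted over all probe sets, and its calls, made where the estimated share of false positives was below 0.05, all fell among the varying probe sets. This estimate treats probe sets as alike in spread, so it was set beside limma's fit of the same values. Of all probe sets, the rank product called 0.957% higher and 0.584% lower. Of the varying ones, it called 11.5% higher and 7.0% lower. limma called 0.0% (0 probe sets, with 4553 at an unadjusted p under 0.05).

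Of the 33 thalamic marker probe sets, 19 varied and 14 were unmeasured, and 9 of the 10 genes had at least 1 varying probe set. The rank product called 12 of the 33 higher in the RA group, from 7 genes, and none lower. The rank product run on the varying probe sets alone called 0 of them, and with a filter on low means it called 3. limma called none, and its lowest adjusted p over all probe sets was 0.252. Nothing is read from the 12 calls against the backgrounds above, because the genes were chosen on this contrast. With RA 1 left out the rank product called 0 member probe sets, and with RA 2, RA 3 or RA 4 left out it called 3, 4 or 1. Over the 8 fits that each left out 1 array, Zic2 was called in 7, both Zic1 probe sets in 6, Prkcd in 5 and the others in at most 4. Nearly all of the varying probe sets had a higher RA mean, but in 18 of 19 the arrays of the groups overlapped. The probe set of Zic2 was the exception, and of all varying probe sets 2.71% had every RA array above every control array and 2.87% every RA array below.

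**Figure D1:**
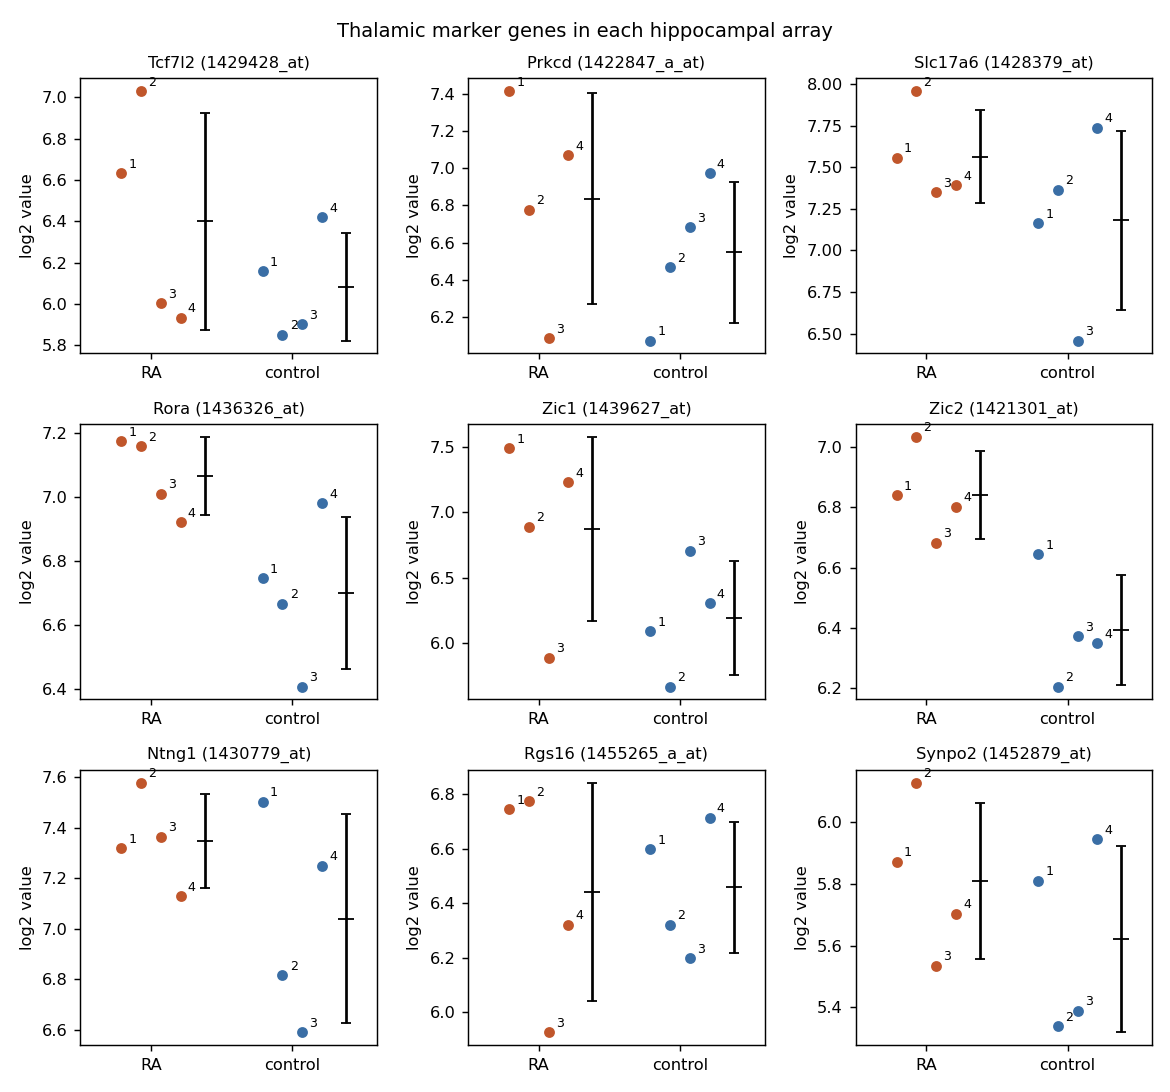
Log2 value of the most variable probe set of each measured gene in each array, with the array number beside each point and the mean ± SD of each group (n = 4) to its right. RA 1 and RA 2 lie at or near the top in most panels and RA 3 among the control arrays in several. Zic2 is the panel in which the groups do not overlap. Each axis has its own range and does not start at 0.

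Tcf7l2 (chr19:55741797-55933659 in GRCm38.p6) encodes a high mobility group transcription factor that binds DNA with beta-catenin. Its most variable probe set, 1429428_at, had log2 values of 6.633, 7.032, 6.004 and 5.932 in RA 1 to RA 4, and of 6.158, 5.851, 5.902 and 6.419 in control 1 to control 4. RA 1 and RA 2 were above every control array, whereas RA 3 and RA 4 lay within the control range. The means were 6.40 ± 0.53 in the RA group and 6.08 ± 0.26 in the control group (SD, n = 4 each), a log2 fold change of 0.32 (SE 0.28). Without RA 2 it was 0.11, the lowest value when 1 array was left out. The other measured probe sets, 1426639_a_at and 1429427_s_at, gave log2 fold changes of 0.31 (SE 0.17) and 0.38 (SE 0.24), and the 3 probe sets ran together over the arrays, with pairwise Pearson correlations of 0.961 to 0.978. The mean of 1426639_a_at was 5.748, below the array medians of 5.829 to 5.835. The fourth, 1425229_a_at, stayed at a mean of 6.004, with no array apart.

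Lef1 (chr3:131110297-131224357), which encodes a close relative of Tcf7l2, was unmeasured. Its probe sets 1421299_a_at and 1454734_at stayed at 5.61 and 6.40 on every array, so these data hold no difference for it, nor show that it was equal. Among 7 genes known as direct targets of Tcf and Lef factors, Axin2, Nkd1, Sp5, Lgr5, Rnf43 and Notum were unmeasured as well. The remaining one, the cyclin gene Ccnd1, was called higher, beside 1.71% of all genes and 12.5% of varying genes. Its means were 6.99 in the RA group and 6.74 in the control group, a log2 fold change of 0.25 (SE 0.18). The highest array of Ccnd1 was control 1 (7.19, against at most 7.07 in the RA group), and without control 3 its log2 fold change was 0.10. limma did not call Ccnd1, and the rank product called it in 1 of the 8 fits with 1 array left out.

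The sequence before the start of the member genes was read because their levels moved together. RefSeq promoters in GRCm38.p6 were matched by symbol for 9 of the 10 genes, all but Zic2 (15 promoters). The 250 bases before each start were searched on both strands for the letters of Tcf and Lef binding sites, in 4 forms. These forms were CTTTGAT with its variant CTTTGAA, and CTTTGTA with its variant CTTTGTT. Of the 15 promoters 3 held a match, 1 each of Tcf7l2, Prkcd and Lef1, beside 14.8% of all 32851 promoters in the table. The first 2 forms alone had no match among these promoters, beside 7.48% of all promoters, and the set was widened after that was seen. The letters of ROR sites (AAGGTCA or its variant TAGGTCA) were in 0 of the 15 and in 6.18% of all. The windows of the 2 measured genes, with the match in capitals, were chr19:55895071-55895320 on the plus strand for Tcf7l2 and chr14:30610311-30610560 on the minus strand for Prkcd.
Tcf7l2: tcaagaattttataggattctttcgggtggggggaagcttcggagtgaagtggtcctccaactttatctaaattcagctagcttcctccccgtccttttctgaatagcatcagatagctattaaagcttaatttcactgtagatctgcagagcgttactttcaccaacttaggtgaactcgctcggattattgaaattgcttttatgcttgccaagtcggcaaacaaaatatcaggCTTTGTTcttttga
Prkcd: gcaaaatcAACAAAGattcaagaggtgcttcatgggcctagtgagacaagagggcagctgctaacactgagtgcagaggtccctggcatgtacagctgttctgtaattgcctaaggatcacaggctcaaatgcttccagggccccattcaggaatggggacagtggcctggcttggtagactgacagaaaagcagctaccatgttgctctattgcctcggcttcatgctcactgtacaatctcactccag
In the Tcf7l2 window the match lies 14 to 8 bases before the start, and in the Prkcd window 242 to 236 bases before it. Both windows precede a start inside the span of the gene, not the outermost one. A match of letters is a description of the sequence, and binding was not measured.

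Rora (chr9:68653404-69388246) encodes the nuclear receptor ROR-alpha. Of its 9 probe sets 5 varied. The most variable, 1436326_at, had log2 values of 7.18, 7.16, 7.01 and 6.92 in RA 1 to RA 4, and of 6.75, 6.67, 6.41 and 6.98 in control 1 to control 4. Only control 4 reached into the RA range, and control 3 was the lowest array. The log2 fold change was 0.37 (SE 0.13), and it stayed between 0.27 and 0.46 when any 1 array was left out. The other 4 probe sets, which share their extracts with it, had smaller log2 fold changes, between 0.11 and 0.24. The smallest, that of 1455165_at, changed sign without control 3 (-0.02).

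Zic1 (chr9:91358058-91365768) encodes a zinc finger transcription factor of neural development, and it had the largest difference of the 10 genes. Its probe set 1439627_at had log2 values of 7.49, 6.89, 5.89 and 7.23 in RA 1 to RA 4, and of 6.09, 5.67, 6.71 and 6.31 in control 1 to control 4. RA 1, RA 2 and RA 4 were above every control array, but RA 3 was below all of them except control 2. The means were 6.88 ± 0.70 in the RA group and 6.19 ± 0.43 in the control group (SD, n = 4 each), a log2 fold change of 0.68 (SE 0.40). It was 0.48 without RA 1 and 1.01 without RA 3. The second probe set, 1423477_at, gave 0.68 (SE 0.37) with the same order of the RA arrays, and its correlation with the first was 0.991.

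Zic2 (chr14:122475384-122480328), a close relative of Zic1, was measured by 1 probe set. Its log2 values were 6.84, 7.03, 6.68 and 6.80 in RA 1 to RA 4, and 6.64, 6.21, 6.37 and 6.35 in control 1 to control 4. Every RA array was above every control array, although the gap between RA 3 and control 1 was small. The log2 fold change was 0.45 (SE 0.11), and it stayed between 0.38 and 0.53 when 1 array was left out. Its relative Zic5 was called higher with a log2 fold change of 0.26 (SE 0.13, in 3 of the 8 fits with 1 array left out), and Zic4 was unmeasured. Of all genes 1.71% were called higher, and of varying genes 12.5%.

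Slc17a6 (chr7:51621830-51671126) carries glutamate into synaptic vesicles. Its probe set 1428379_at had log2 values of 7.56, 7.96, 7.35 and 7.39 in RA 1 to RA 4, and of 7.17, 7.37, 6.46 and 7.74 in control 1 to control 4. Control 3 stood below the other arrays, and control 4 was above all RA arrays except RA 2. The means were 7.56 ± 0.28 in the RA group and 7.18 ± 0.54 in the control group (SD, n = 4 each). The log2 fold change was 0.38 (SE 0.29), or 0.14 without control 3, and that of the second probe set, 1418610_at, also came to 0.14 without it, against 0.37 (SE 0.24) with all arrays. The hippocampal counterpart Slc17a7 was unmeasured, so the ratio of the transporters could not be followed.

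Prkcd (chr14:30595353-30626414) encodes protein kinase C delta. Its measured probe set, 1422847_a_at, had log2 values of 7.42, 6.78, 6.08 and 7.07 in RA 1 to RA 4, and of 6.07, 6.47, 6.68 and 6.97 in control 1 to control 4. RA 3 was as low as the lowest control array, and RA 1 and RA 4 were above every control array. The log2 fold change was 0.29 (SE 0.33), with 0.10 without RA 1 and 0.54 without RA 3. Of the other kinase C genes that varied, none was called. Prkce and Prkcb had log2 fold changes of -0.06 (SE 0.08) and -0.06 (SE 0.13). Over the 8 arrays, Prkce, Prkcb and Prkca had correlations of -0.80, -0.59 and -0.66 with the mean standardised level of the members.

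Rgs16 (chr1:153740353-153745468) encodes a protein that shortens signalling by G proteins, and its probe sets disagreed. The most variable, 1455265_a_at, had log2 values of 6.74, 6.77, 5.93 and 6.32 in RA 1 to RA 4, and of 6.60, 6.32, 6.20 and 6.71 in control 1 to control 4. RA 1 and RA 2 were the highest arrays and RA 3 the lowest, so the group means were nearly equal and the log2 fold change was -0.02 (SE 0.22). Without RA 3 it was 0.16. The second varying probe set, 1426037_a_at, gave 0.24 (SE 0.18), and its correlation with the first was 0.753. Neither was called. Its family members Rgs7 and Rgs8 were unmeasured, and Rgs4 had a log2 fold change of 0.03 (SE 0.15). Rgs2 also varied, and neither was called. Their correlations with the mean standardised level of the members were 0.31 for Rgs4 and 0.73 for Rgs2.

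Ntng1 (chr3:109780050-110149972) encodes netrin-G1, a membrane-anchored protein of thalamocortical axons. Its probe set 1430779_at had log2 values of 7.32, 7.58, 7.36 and 7.13 in RA 1 to RA 4, and of 7.50, 6.82, 6.59 and 7.25 in control 1 to control 4. Control 2 and control 3 were low and the other 6 arrays overlapped. The log2 fold change was 0.31 (SE 0.22), or 0.16 without control 3, and the second varying probe set gave 0.23 (SE 0.20). Synpo2 (chr3:123076519-123236168) encodes an actin-binding protein related to synaptopodin. Its single varying probe set, 1452879_at, had log2 values of 5.87, 6.13, 5.53 and 5.70 in RA 1 to RA 4, and of 5.81, 5.34, 5.39 and 5.94 in control 1 to control 4. The mean of 5.715 lay below the array medians of 5.829 to 5.835, so the signal of Synpo2 was low. Only RA 2 was above every control array. The log2 fold change was 0.19 (SE 0.19), and the rank product did not call it.

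**Figure D2:**
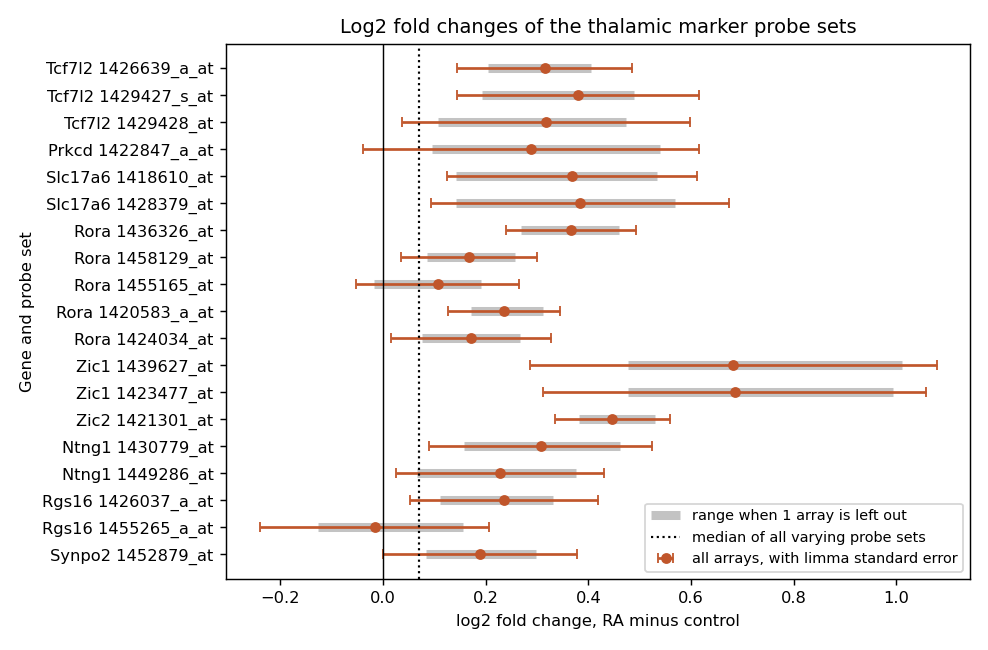
Log2 fold change (RA minus control) of each of the 19 varying probe sets, as points with limma's standard error, and its range when 1 array was left out, as grey bars. The dotted line is the median of all varying probe sets, 0.07. Of the points, 18 lie above 0 and 1455265_a_at of Rgs16 lies at -0.02, and the grey bars of 1455265_a_at and of 1455165_at of Rora cross 0.

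The genes were then followed from array to array, with each gene centred on its mean over the 8 arrays and the most variable probe set standing for the gene. The mean of the 9 measured genes was 0.37, 0.40, -0.21 and 0.09 in RA 1 to RA 4, and -0.10, -0.33, -0.33 and 0.11 in control 1 to control 4. RA 1 and RA 2 carried the higher RA mean. In each of these arrays all 9 genes were above their own mean, and 1 of the pair was the highest array in every gene, RA 2 in 6 genes and RA 1 in 3. In RA 4 5 of 9 genes were above their mean, and in RA 3 only 3. Among the controls, all 9 genes were below their mean in control 2 and 8 of 9 in control 3, whereas 7 of 9 were above it in control 4. The lowest array of a gene was control 2 in 4 genes, control 3 in 3, and control 1 and RA 3 in 1 each. RA 3 lay within the range of the control arrays, and control 4 lay above both RA 3 and RA 4. The mean level was 0.16 ± 0.28 in the RA group and -0.16 ± 0.21 in the control group (SD, n = 4 each), a difference of 0.33. It stayed between 0.25 and 0.45 when 1 array was left out.

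**Figure D3:**
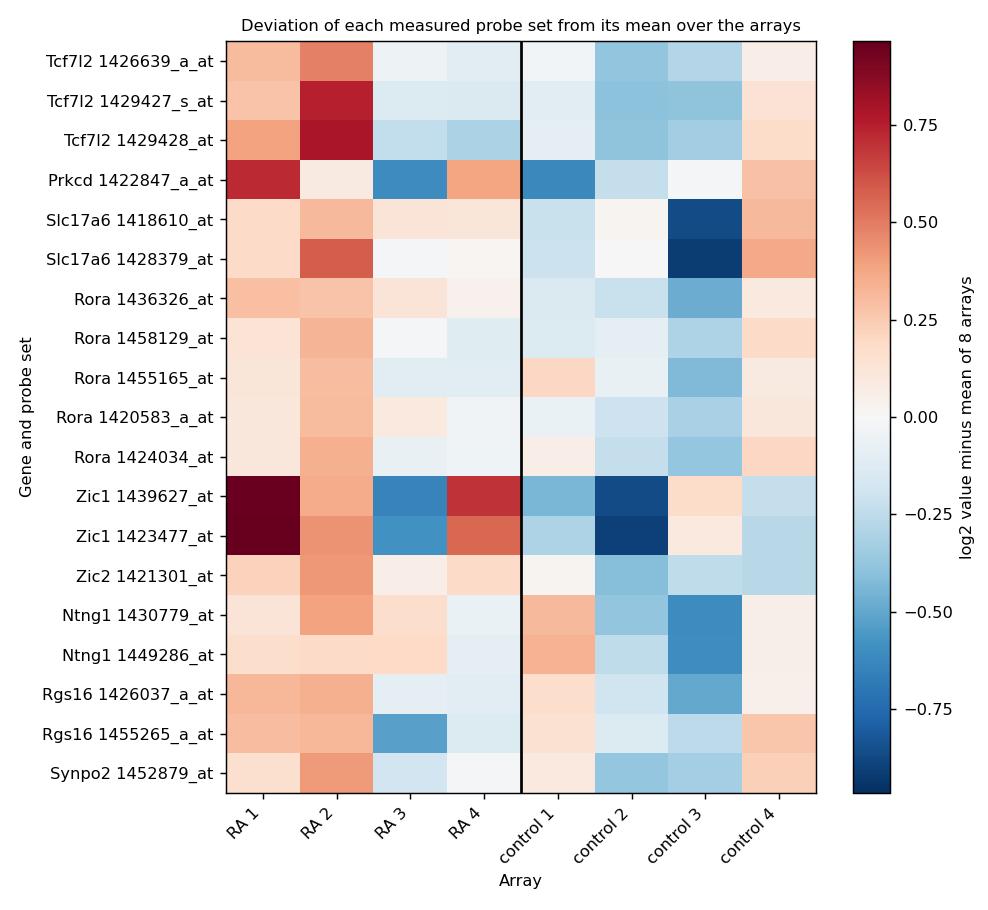
Deviation of each of the 19 varying probe sets (rows) from its own mean in each array (columns, RA arrays to the left of the line), in log2 units. The columns of RA 1 and RA 2 are above the mean in all rows, and most rows of control 2 and control 3 are below it.

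The genes did not all follow the same order of arrays. Over the 8 arrays, Pearson's correlation of each gene with the mean of the other 8 was 0.91 for Synpo2, 0.87 for Tcf7l2, 0.83 for Rora, 0.72 for Slc17a6, 0.70 for Zic2, 0.70 for Rgs16, 0.67 for Ntng1, 0.54 for Zic1 and 0.46 for Prkcd. These are descriptions over 8 points that share their RNA, array and scaling. The group difference on which the genes were chosen is part of them, so positive values are partly built in. With group means subtracted, the correlations were 0.94 for Synpo2, 0.86 for Tcf7l2, 0.76 for Rora, 0.63 for Slc17a6 and 0.56 for Zic2. They were 0.96 for Rgs16, 0.54 for Ntng1, 0.32 for Zic1 and 0.35 for Prkcd. Zic1 and Prkcd, the lowest, were the genes in which RA 4 was high and RA 3 was at or near the bottom. Of the 36 pairs of genes, 35 had a correlation above 0 and 20 above 0.5, with a median of 0.60 and a range of -0.08 to 0.89. The group difference was left in for these pairs. Without Zic1 and Prkcd, left out after these values were seen, the median of the 21 remaining pairs was 0.71 and the lowest 0.31. Zic1 and Zic2, for all their likeness, differed in the control arrays, where Zic1 was highest in control 3 and Zic2 in control 1.

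A wider list of 15 dorsal thalamic genes, of which 14 were on the array, gave 5 that varied. These were the transcription factor genes Gbx2 and Foxp2, Amotl1, which encodes an angiomotin-like junction protein, Calb2, which encodes the calcium-binding protein calretinin, and Cbln1, which encodes a secreted synaptic organiser. All 5 had a higher RA mean, as did 74.4% of all varying genes. Their log2 fold changes were 0.21, 0.27, 0.23, 0.28 and 0.21 in that order. The median was 0.23 over the 5, beside 0.08 over all varying genes. Over all 14 genes on the array it was 0.0003, because most of them were unmeasured. The rank product called 1 of the 14 higher, Calb2 (SE 0.23, limma adjusted p = 0.705), beside 1.71% of all genes and 12.5% of varying genes, and called none lower. Calb2 was called in 2 of the 8 fits with 1 array left out, and the log2 fold change of Cbln1 was -0.07 without control 3. Gbx2, which in the brain marks the developing thalamus, had log2 values of 5.43, 5.59, 5.19 and 5.10 in RA 1 to RA 4, and of 5.14, 5.15, 5.09 and 5.11 in control 1 to control 4. RA 1 and RA 2 stood out and the other 6 arrays were nearly level. All of these values lay below the array medians of 5.829 to 5.835, so the signal of Gbx2 was low. The mean level of the 5 genes had a correlation of 0.91 with that of the members over the 8 arrays. The 9 other genes, Lhx9, Tnnt1, Ptpn3, Ramp3, Vipr2, Plcb4, Cacna1g, Slitrk6 and Adarb1, were unmeasured.

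Neighbouring nuclei gave fewer values. Of 3 genes of the reticular thalamus on the array, Ecel1 was called higher (log2 fold change 0.18, SE 0.56, in 3 of the 8 fits with 1 array left out) and Pvalb had a log2 fold change of 0.04 (SE 0.24). The share called higher was 1.71% of all genes and 12.5% of varying genes. The highest array of Ecel1 was control 1 (7.95, against at most 7.09 in the RA group). Without control 2 the log2 fold change of Ecel1 was -0.08. Of 5 genes of the habenula, the small nucleus beside the thalamus, only Tac2 varied, with a log2 fold change of 0.10 (SE 0.25), while Pou4f1, Gpr151, Chrna3 and Chrnb4 were unmeasured. Of the 4 hypothalamic genes on the array, only Avp varied, with a log2 fold change of 0.21 (SE 0.20), and Pmch, Hcrt and Oxt were unmeasured.

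Markers of the labelled tissue ran partly the other way. Of 11 hippocampal genes 10 varied, none with a higher RA mean, and 3 were called lower, beside 1.09% of all genes and 7.93% of varying genes. These were Neurod6 (log2 fold change -0.30, SE 0.47), Dsp (-0.20, SE 0.60) and the dentate gyrus gene Prox1 (-0.15, SE 0.33), which were called in 5, 3 and 2 of the 8 fits with 1 array left out. All 3 changed sign without RA 2, with log2 fold changes of 0.02, 0.17 and 0.05 in that order. The mean level of the 10 genes was 0.01, -0.49, 0.03 and 0.21 in RA 1 to RA 4, and -0.35, 0.27, 0.25 and 0.06 in control 1 to control 4. RA 2, the array highest in the members, and control 1 were the lowest in hippocampal markers, and the correlation of both levels was -0.55 over the 8 arrays. The same 2 arrays, with control 4, were the lowest in 9 oligodendrocyte genes, with mean levels of -0.74 in RA 2, -0.61 in control 1 and -0.36 in control 4, and the other arrays at or above 0.15. With RA 2 and control 1 both left out, the difference in the member level was 0.27 and 3 member probe sets were called. The part of these markers in the result was not tested.

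Markers of other tissues and cell types did not follow the members alike. The counts below stand beside 1.71% of all genes and 12.5% of varying genes called higher, and 74.4% of varying genes with a higher RA mean. All 12 choroid plexus genes were called higher, but their mean level was high in control 3 (1.63), RA 4 (1.37) and RA 3 (0.87) and at or below -0.13 in the other arrays, with a correlation of -0.33 with the member level. Of 8 varying genes of the meninges 5 were called higher, with the highest level in RA 2 (0.65) and a correlation of 0.47. All 6 varying astrocyte genes had a higher RA mean and 4 were called higher, among them the glutamate transporter gene Slc1a3 (log2 fold change 0.22, SE 0.09) and the water channel gene Aqp4 (0.20, SE 0.07), called in 2 and 4 of the 8 fits with 1 array left out. The astrocyte level was 0.02 to 0.15 in the RA group and -0.19 to 0.03 in the control group, and its correlation with the member level was 0.80. Of 5 varying striatal genes, the substance P precursor gene Tac1 was called higher (0.37, SE 0.34, in 2 of 8 such fits). The phosphodiesterase gene Pde10a was called lower (-0.42, SE 0.10, in 8 of 8 such fits), with every RA array below every control array. The parts of these cell types in the member levels were not tested.

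**Figure D4:**
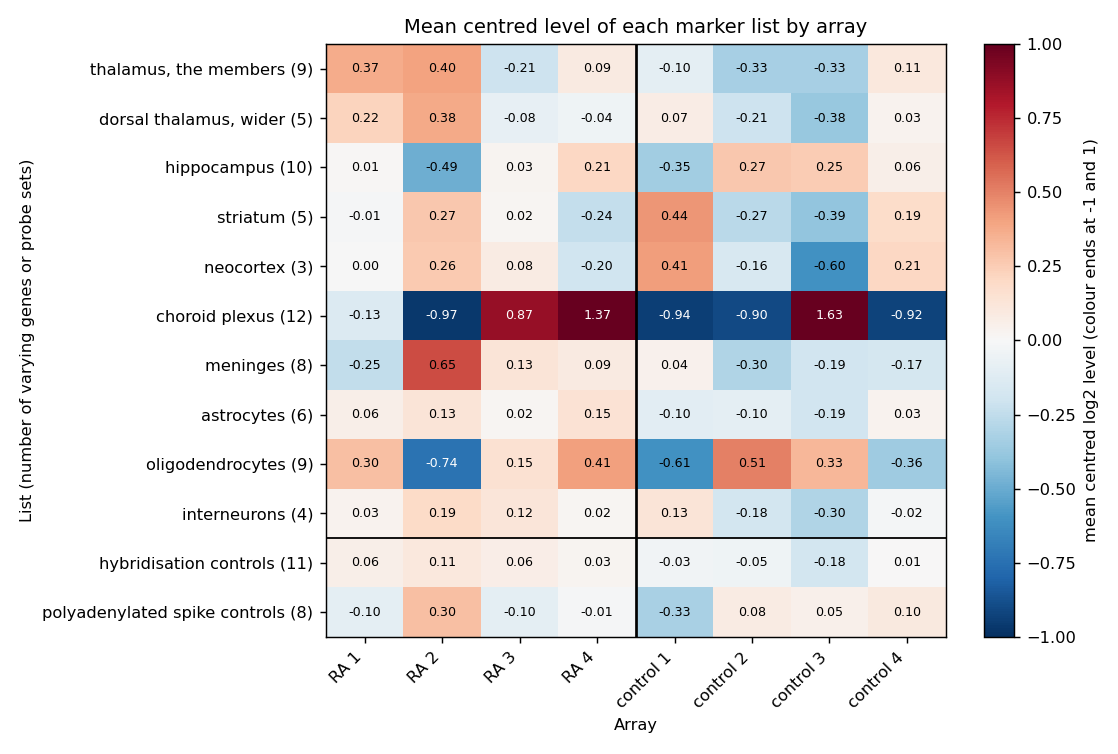
Mean centred log2 level of each marker list (rows, with the number of varying genes or probe sets) in each array (columns, RA arrays to the left of the line). The wider thalamic list follows the members, the hippocampal and oligodendrocyte lists are lowest in RA 2 and control 1, and the choroid plexus list is highest in control 3 and RA 4. The lowest 2 rows are spike controls of the manufacturer.

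The arrays also differed in RNA that did not come from the mice. The hybridisation controls, bacterial and phage sequences added to every sample just before hybridisation, had 11 varying probe sets, all with a higher RA mean. Their mean centred level was 0.06, 0.11, 0.06 and 0.03 in RA 1 to RA 4, and -0.03, -0.05, -0.18 and 0.01 in control 1 to control 4. Every RA array was above every control array, with a difference of 0.129 (exact permutation test, 2-sided, p = 0.0286, the smallest that 4 against 4 arrays allow, and 0.0571 after Benjamini-Hochberg adjustment over the 2 kinds of spike control). This comparison was chosen with the values in view. The level of the polyadenylated spike controls, added to the RNA earlier, differed by 0.05 (exact permutation test, 2-sided, p = 0.743). The correlation with the member level was 0.73 for the hybridisation controls and 0.28 for the polyadenylated ones. With the hybridisation level subtracted in each array, the member level was 0.31, 0.30, -0.27 and 0.06 in RA 1 to RA 4, and -0.07, -0.29, -0.15 and 0.10 in control 1 to control 4, a difference of 0.20. RA 1 and RA 2 remained the 2 highest arrays. The log2 difference of the 3′ and 5′ actin probe sets was 0.92, 1.05, 0.97 and 0.75 in RA 1 to RA 4. It was 1.06, 0.77, 0.78 and 0.98 in control 1 to control 4, with overlapping groups. The 3′ probe set was nearly constant over the arrays, so this difference only mirrors the 5′ level and cannot be read as RNA integrity. The 5′ level was lowest in RA 2 (11.83) and control 1 (11.82), the arrays lowest in hippocampal and oligodendrocyte markers. The part of RNA quality in these levels was not tested.

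Genes outside the list were ranked by the correlation of their level with the mean standardised level of the 9 members, over the 8 arrays and 2213 genes with an SD of at least 0.1. The median correlation was 0.22, and 19 genes reached 0.9. The most alike were Olfml3 (0.97), S1pr1 (0.97), Znhit1 (0.96), Zfhx3 (0.95), Id4 (0.95), Slc1a3 (0.94), Palm (0.92), Smdt1 (0.92), Pnck (0.92) and Gnb1 (0.92). S1pr1 encodes a receptor for sphingosine 1-phosphate, Zfhx3 and Id4 encode regulators of transcription, and Gnb1 encodes a G protein subunit. The least alike were Bpnt1 (-0.91), Rnf185 (-0.91), Odc1 (-0.91), Adcy9 (-0.90) and Ywhaq (-0.90). Odc1, whose product starts polyamine synthesis, had log2 values of 7.80, 7.32, 7.98 and 7.74 in RA 1 to RA 4, and of 7.86, 8.20, 8.43 and 7.82 in control 1 to control 4, with RA 2 lowest and control 3 highest. Of the wider thalamic list, Amotl1 ranked 21, Foxp2 53, Calb2 80, Gbx2 178 and Cbln1 828 (correlation 0.50) of the 2213 genes, with the astrocyte gene Slc1a3 at 6.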

How the data were processed

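Hippocampal total RNA of 8 samples was hybridised to Affymetrix mouse expression arrays, 1 per sample. The authors ran FARMS on the scanner files, and what they deposited is 1 log2 level per probe set and array. How arrays were scaled in that step was not given in the sources used here. No further scaling was applied and no column of sample values was left out (0 unused). The 64 manufacturer controls were kept out of the tests, 34945 of 45037 probe sets name 1 gene in the platform annotation, and positions, symbols and promoters are from RefSeq in GRCm38.p6.

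The rank product was computed from the 16 differences between RA and control arrays with 100 permutations within arrays (Python 3.11.15, numpy 2.4.6). limma 3.58.1 in R 4.3.3 gave the standard errors, and its p-values were adjusted over all probe sets by Benjamini-Hochberg. Both were tested on simulated data. Groups and array numbers follow the labels. The probe set with the highest SD stands for a gene in levels and lists. All probe sets of the members were taken, with every varying gene of the wider thalamic list, the 10 genes most and 5 least like the members, and up to 4 varying genes with the largest change from each of the other 16 lists. Unmeasured genes named in the text, and Prkca and Rgs2, fall outside this rule. Members and lists were chosen with earlier results of these data known. Hybridisation controls, Zic1 left out, RA 2 and control 1 left out, and the promoter letters were chosen after the values were seen, and other letters tried first are not reported. Alternatives were quantile normalization, subtracted array medians, filters, a stricter threshold, a replicate block, moderation with a trend, standardised levels and leaving out each array.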

Additional observations from a re-analysis of the deposited data

Results flagged for a closer look

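The groups of 4 arrays were searched for an array far from the other 3 in the member probe sets and in the mean level of each list. This found 3 of 74 groups, and chance alone flags about 1 in 20. In probe set 1449286_at of Ntng1, RA 4 had a log2 value of 7.54 and the other RA arrays 7.80 to 7.82. The habenula list, which is 1 gene here (Tac2), had a centred level of -0.32 in RA 4 and of 0.13 to 0.22 in the other RA arrays. The choroid plexus list had a level of 1.63 in control 3 and of -0.94 to -0.90 in the other control arrays.

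The hybridisation controls, which stand outside the measurement of mouse RNA, were 0.129 higher in the RA arrays than in the control arrays. Their part in the member levels was not tested beyond the subtraction described for the member level.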

How the results depend on the processing

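The difference in the member level was 0.33 and stayed above 0 in all settings run: 0.25 to 0.45 with 1 array left out, 0.29 without Zic1, 0.27 without RA 2 and control 1, 0.20 with the hybridisation controls subtracted and 0.86 in SD units. Of 190 values of member log2 fold changes under other settings, 5 changed sign, 4 in Rgs16 (1455265_a_at) and 1 in Rora (1455165_at). The counts of calls depended on the setting. The 12 member probe sets called became 0 to 16 with 1 array left out, 3 with RA 2 and control 1 left out, 3 with a filter on low means, 0 when the rank product was run on the varying probe sets alone and 0 with limma. The 1 call of the wider list became 0 to 5 with 1 array left out, and 0 with RA 2 and control 1 left out, with either filter or with limma. Over all probe sets the rank product called 694 (431 higher, 263 lower), 276 to 1222 with 1 array left out (18 to 948 higher, the fewest without RA 1 and the most without control 1), 282 with RA 2 and control 1 left out, 228 (43 higher, 185 lower) with the filter on low means, 21 (4 higher, 17 lower) when run on the varying probe sets alone and 191 at a threshold of 0.01. limma called 0, and 0 to 1 with 1 array left out, but 28543 after quantile normalization and 41443 with array medians subtracted, which gives the nearly constant probe sets a common shift. Of the 10 genes most like the members, 8 were shared with unscaled levels and 4 with group means subtracted.

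The array numbers were not used as pairs. Deviations of same-numbered arrays had correlations of -0.39 to 0.45, with 1 of 4 above 0.1. limma called 0 probe sets with the number as a replicate block and 0 without it, so that fit cannot decide whether the numbers pair the samples. With 4 arrays per group the precision is limited, and unmeasured probe sets carry no information on a difference.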
